A study of Mus musculus with 6 samples.

Results

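A set of 10 RNA-binding regulators of neuronal splicing was followed in cultured mouse retinal ganglion cells (RGCs) that received Sox11, a Sox11 mutant or a control virus. They were the neuronal ELAV genes Elavl2, Elavl3 and Elavl4, the NOVA genes Nova1 and Nova2, the RBFOX genes Rbfox1, Rbfox2 and Rbfox3, and the polypyrimidine tract binding genes Ptbp1 and Ptbp2. The 10 genes were chosen by symbol among 43346 Ensembl genes in the deposited tables. All 10 had enough counts to be tested, as did 15747 genes in all.

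Sox11 is a SoxC transcription factor, and Sox11 K91A carries an alanine in place of the lysine at which the protein is SUMOylated. RGCs of C57BL/6 mice were purified by immunopanning for CD90.1, plated on laminin, and kept in medium with forskolin, BDNF and CNTF. AAV2 carrying Sox11-IRES-EGFP, Sox11 K91A-IRES-EGFP or EGFP alone (control) was added 4 hours after plating, and total RNA was taken 72 hours after plating. Each of the 3 groups had 2 libraries, sequenced to between 27521981 and 37061718 expected counts. The age of the animals is given as embryonic day 18 for the sequenced cultures and as postnatal in other descriptions of the culture, so it is left unresolved here. Cells of all 3 groups were cultured and carried a virus with EGFP. RNA was sequenced in duplicate per group, and nothing states that the duplicates were separate cultures, so the p-values measure the spread between these libraries, which may be partly technical. The control and Sox11 pairs also differed within the pair in markers of sex, as given below.

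These proteins bind pre-mRNA and mRNA at short motifs. The neuronal ELAV (Hu) proteins bind U-rich and AU-rich stretches and act on splicing, stability and translation. NOVA proteins bind clusters of YCAY, and RBFOX proteins bind UGCAUG beside regulated exons. Rbfox3 encodes NeuN, the nuclear antigen used to stain mature neurons. PTBP1 is the form of most non-neuronal cells and progenitors, and it represses neural exons, among them one in its paralog Ptbp2. PTBP2 takes over in young neurons and declines in most neurons as they mature.

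The exon of Ptbp2 that PTB proteins repress is shown because an mRNA that lacks it is a substrate of nonsense-mediated decay. It is exon 10 of 14 in the only Ptbp2 transcript that the deposited tables hold, at chr3:119724612-119724645 (GRCm38, minus strand), and lies in the coding sequence. The 34 bases of exon 10 are in capitals, between the last 30 bases of exon 9 and the first 30 of exon 11, from the GENCODE M21 transcript.
Ptbp2 exon 10: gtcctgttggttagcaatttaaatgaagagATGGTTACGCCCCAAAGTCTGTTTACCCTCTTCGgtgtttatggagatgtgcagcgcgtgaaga
With the exon, the transcript encodes 532 amino acids. Without it the frame shifts, and the first stop falls in exon 11 after 356 codons, 361 bases before the last exon junction. Of 6 annotated Ptbp2 transcripts that span the exon, 3 lack it, and 2 of those 3 are annotated as targets of nonsense-mediated decay. The gene-level values cannot separate the forms, since the tables hold only the form with the exon.

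The level of Sox11 followed the labels. In TPM, the length-scaled level that RSEM gives, Sox11 had 56.9 and 73.4 in the control libraries, 2256 and 3631 in the Sox11 libraries, and 2889 and 1682 in the Sox11 K91A libraries. RGC markers were present in every library, with Pou4f1, Rbpms and Tubb3 among them, and the 10 markers summed to between 5618 and 10300 TPM. Gfap, Olig2 and Tyrobp were at 0 in all 6 libraries, but other markers of their lists were not. The 8 oligodendrocyte lineage markers summed to between 19.5 and 30.8 TPM, with Mbp at 12.2 to 24.1 TPM and Mog at 2.02 to 14.5 TPM. The 9 microglia and macrophage markers summed to between 0.97 and 5.12 TPM, and the 9 photoreceptor and bipolar markers to between 0.95 and 2.83 TPM. Control replicate 2 and Sox11 replicate 2 stood apart from the rest in the sex markers Ddx3y and Xist. They had Ddx3y at 15.1 and 16.4 TPM against 7.53 to 8.06 in the other libraries. Their Xist was at 30.3 and 56.9 TPM against 72.9 to 107 in the others, both Sox11 K91A replicates included. They also lay together on the second principal component of all genes. The calls of members and the values of called list genes are therefore given with and without these libraries. Without both, 1 control and 1 Sox11 library are left, and the spread rests on the Sox11 K91A pair alone. That pair was the closest of the 3. The chi-square per degree of freedom between replicate counts was 20.6 there, against 96.3 for control and 54.7 for Sox11. The calls of that fit carry no spread between control or Sox11 libraries, so a call kept or gained there is not a test of the calls made on all 6. The calls also rested on single libraries: no gene at all was called with Sox11 without Sox11 replicate 2, nor with Sox11 K91A without control replicate 2.

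In control RGCs the regulators spanned a wide range of levels per transcript length (TPM, mean ± SD, n = 2). Elavl3 was the highest at 307 ± 29.5 TPM, above 97.5% of the 21031 genes with a TPM over 0. Elavl4 followed at 206 ± 16.8 TPM and Rbfox2 at 161 ± 22.9 TPM. The control ranges of these first 3 genes did not overlap. Rbfox3 (70.3 ± 1.10 TPM), Ptbp2 (67.4 ± 10.1 TPM), Elavl2 (60.3 ± 14.3 TPM) and Rbfox1 (59.4 ± 2.96 TPM) formed a middle rank. The order within it is not resolved, since each range overlapped that of the next. Nova2 stood at 38.6 ± 9.03 TPM, Ptbp1 at 18.4 ± 1.68 TPM and Nova1 at 13.7 ± 0.0354 TPM. The lowest member, Nova1, was still above 60.4% of the genes with a TPM over 0.

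Between viruses, the comparisons below use CPM, the counts scaled for library size and TMM factors, which do not change with the transcript length assigned to a gene. A gene is called where limma-voom gave a false discovery rate (FDR) under 0.05 and a fold change over 1.2 in either direction. With Sox11, 3 of the 10 regulators were called: Rbfox2 and Ptbp2 rose and Rbfox3 fell. Over all genes tested 20.1% were called, 9.96% higher and 10.2% lower, so 2 higher and 1 lower among 10 genes is not far from the background. With Sox11 K91A, Rbfox2 rose and no other member was called. There 10.6% of all genes were called, 5.81% higher and 4.81% lower. The CPM of the control and virus libraries did not overlap for 7 of 10 members in either comparison, beside 61.5% of all genes with Sox11 and 61.9% with Sox11 K91A.

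**Figure D1:**
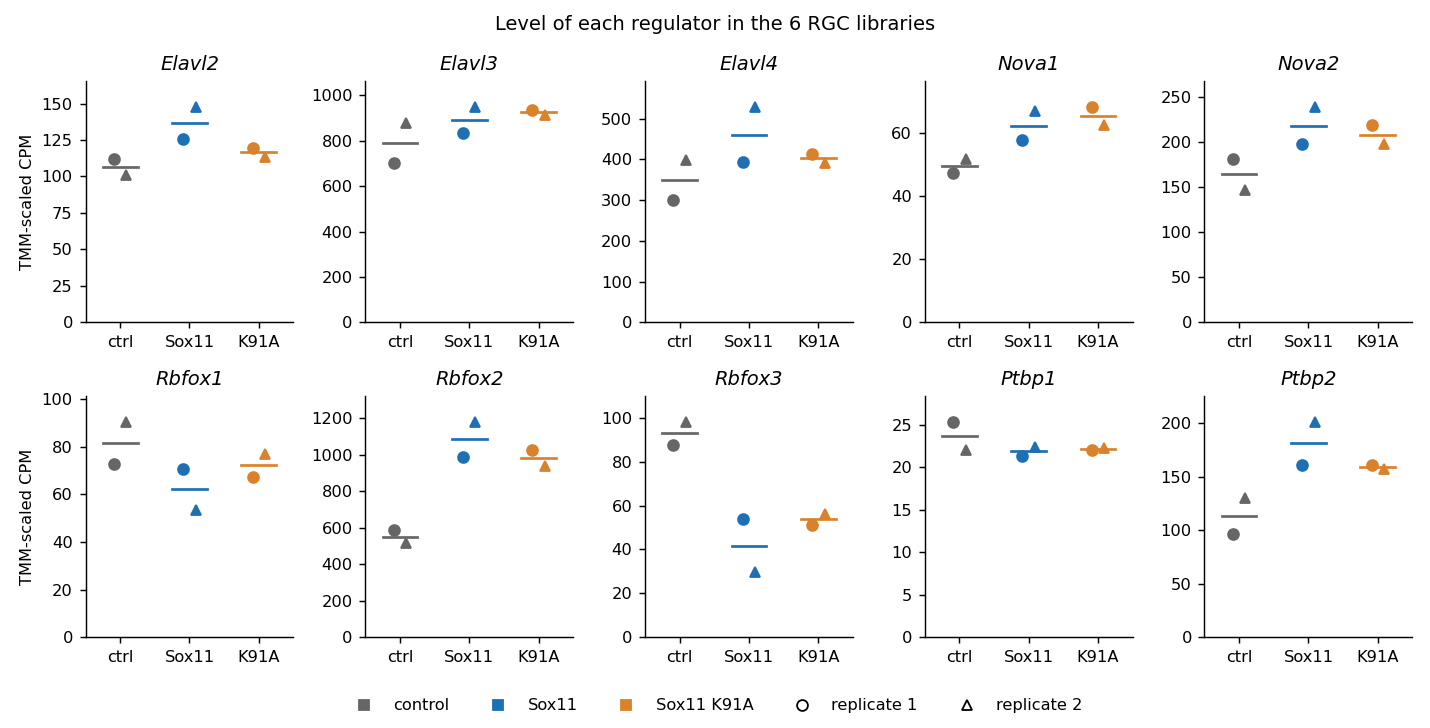
TMM-scaled CPM of each regulator (y axis, from 0) in the control, Sox11 and Sox11 K91A libraries (x axis), with replicates as circles and triangles and the group mean as a bar. Rbfox2, Ptbp2, Elavl2, Nova1 and Nova2 lie higher in all 4 virus libraries than in both controls, and Rbfox3 lies lower.

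Rbfox2, which promotes or blocks exons according to which side of them it binds, had the largest rise of the 10 members with each virus. Its level was 584.8 and 517.8 CPM in the controls, 989 and 1180 CPM with Sox11, and 1026 and 938.7 CPM with Sox11 K91A. All 4 virus libraries were above both controls. The log2 fold change was 0.97 (SE 0.16, limma-voom FDR 0.0145) with Sox11 and 0.83 (SE 0.16, limma-voom FDR 0.0279) with Sox11 K91A, which are rises of 96.1% and 78.2%. In bulk RNA, a change in RNA per cell and a change in the share of cells that express a gene cannot be told apart. The rise was 0.76 with Sox11 and 0.75 with Sox11 K91A on the log2 scale without the pair of libraries that stood apart. It was not called with Sox11 once Sox11 replicate 2 was left out (FDR 0.106). With Sox11 K91A it was not called without Sox11 K91A replicate 1 (FDR 0.304), without Sox11 K91A replicate 2 (FDR 0.112) or without control replicate 2 (FDR 0.0603).

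Rbfox3 moved the other way. It had 87.63 and 98.15 CPM in the controls, 53.9 and 29.62 CPM with Sox11, and 51.3 and 56 CPM with Sox11 K91A. Each virus library was below both controls, and Sox11 replicate 2 was the lowest of the 6. Sox11 replicate 2 also had the highest level of Sox11, at 3631 TPM, and whether this bears on its Rbfox3 level was not tested. The log2 fold change with Sox11 was -1.23 (SE 0.26, limma-voom FDR 0.0251), a level lower by a factor of 2.34. The size depended on Sox11 replicate 2: without it the value was -0.78 (FDR 0.109), and without both libraries that stood apart it was -0.70 (FDR 0.0347). Leaving out control replicate 2 also ended the call, at an FDR of 0.072. With Sox11 K91A the log2 fold change was -0.79 (SE 0.26) and was not called at an FDR of 0.0937. It was called without Sox11 replicate 1 (FDR 0.033), without Sox11 replicate 2 (FDR 0.0351), without both libraries that stood apart (-0.71, FDR 0.0133), in a fit of those 2 groups alone (FDR 0.0339) and by DESeq2 (FDR 0.0409).

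Rbfox1, the third of the family and a regulator of neuronal excitability genes, was not called with either virus. It had 72.85 and 90.52 CPM in the controls, 70.86 and 53.48 CPM with Sox11, and 67.4 and 76.92 CPM with Sox11 K91A. The log2 fold changes were -0.40 (95% interval -0.85 to 0.05, FDR 0.173) and -0.17 (95% interval -0.63 to 0.28, FDR 0.589) by limma-voom. The first came close to 0, at -0.04, without the libraries that stood apart. Its control libraries differed from each other by more than Rbfox1 differed between the Sox11 K91A and control means.

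The 3 RBFOX genes together rose from 310 and 272 TPM in the controls to 410 and 441 TPM with Sox11 and 408 and 389 TPM with Sox11 K91A. Rbfox2 supplied 57.2% and 53.3% of that sum in the controls, 74.7% and 84.1% with Sox11, and 76.6% and 72.8% with Sox11 K91A. Rbfox3 supplied 23% and 25.6% in the controls, 10.6% and 6.28% with Sox11, and 10.1% and 11.8% with Sox11 K91A. The shares of both genes in the virus libraries lay outside the control range in all 4 libraries. An exact two-sided permutation test of 2 libraries against 2 cannot go below p = 0.333, and each of these sums and shares gave that value against control.

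**Figure D2:**
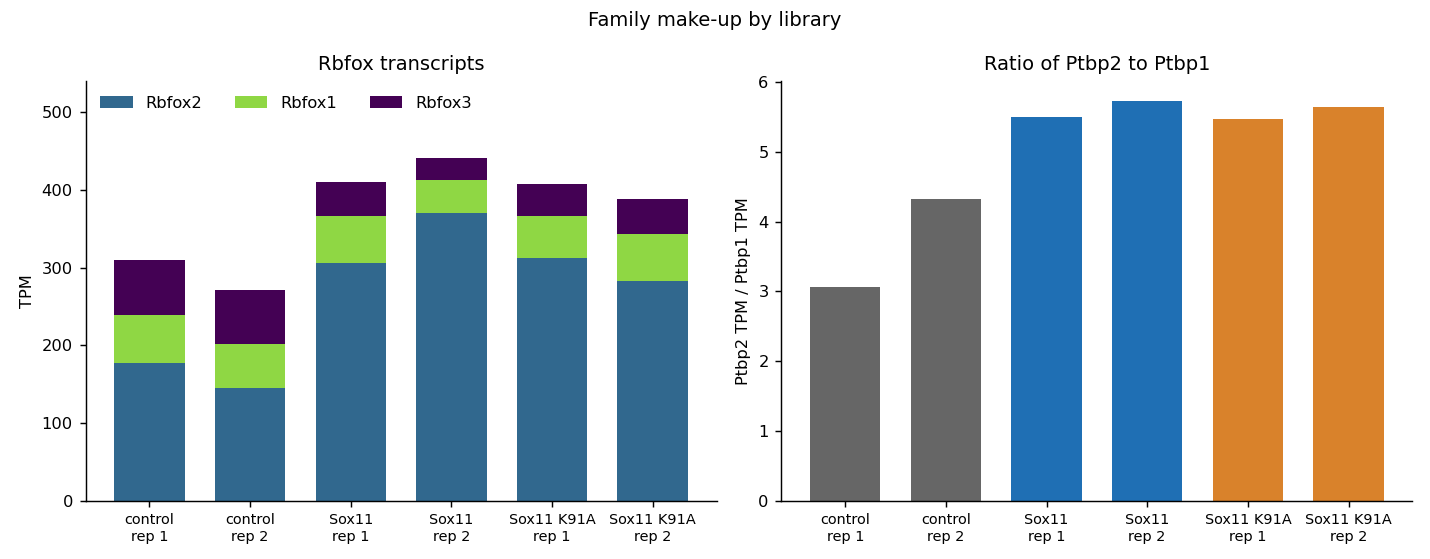
Left, TPM of Rbfox2, Rbfox1 and Rbfox3 stacked for each of the 6 libraries. Right, the ratio of Ptbp2 to Ptbp1 TPM in each library, which was 3.07 and 4.32 in the controls and between 5.47 and 5.73 in the virus libraries.

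RefSeq start sites of Rbfox3 give 1 promoter entry (GRCm38.p6), and the 250 bases before that start are shown because Rbfox3 was the only member that was called lower. The window is at chr11:118761042-118761291 on the minus strand, overlaps no annotated exon, and lies 150306 bases inside the outermost start of the gene. Capitals mark matches to ACAAAG or ACAATG on either strand, which are core motifs of SOX proteins.
Rbfox3 promoter: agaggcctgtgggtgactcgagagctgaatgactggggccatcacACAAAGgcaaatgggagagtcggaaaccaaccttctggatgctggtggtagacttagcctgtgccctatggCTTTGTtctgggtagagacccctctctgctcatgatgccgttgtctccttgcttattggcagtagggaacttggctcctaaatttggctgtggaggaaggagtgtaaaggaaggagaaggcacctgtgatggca
The 2 matches, ACAAAG on the gene's strand and its reverse complement, begin 205 and 134 bases before the start site. Such a match was present in 25.2% of all 32851 promoter windows of this length, and in 4 of the 18 windows of the 9 members with an entry. No binding data were analysed here, and a match describes the letters only. Elavl2, Elavl4 and Ptbp1, which were not called with either virus, each had 1 window with a match. Of the members that were called higher, Ptbp2 had no match in its 1 window, and Rbfox2 had no entry.

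Ptbp2 rose with Sox11. It had 96.4 and 130.5 CPM in the controls, 161 and 201.6 CPM with Sox11, and 161.1 and 157.6 CPM with Sox11 K91A. The virus libraries were again above both controls, although the controls lay well apart from each other. The log2 fold change with Sox11 was 0.69 (SE 0.19) at a limma-voom FDR of 0.0478, just inside the threshold. It was called under 8 of 13 other settings, with an FDR between 0.0117 and 0.0986. Among the fits that left out 1 library, it was called without control replicate 2 (FDR 0.0408). It was not called without Sox11 replicate 1 (FDR 0.0581), Sox11 replicate 2 (FDR 0.266), control replicate 1 (FDR 0.0847), Sox11 K91A replicate 1 (FDR 0.0962) or Sox11 K91A replicate 2 (FDR 0.099). Without both libraries that stood apart the value was 0.74 (FDR 0.0288). With Sox11 K91A the log2 fold change was 0.51 (SE 0.19, limma-voom FDR 0.128), and it was 0.73 (FDR 0.011) without those libraries and 0.70 (FDR 0.0204) with a block for them.

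Ptbp1 was low and was not called with either virus. It had 25.33 and 21.98 CPM in the controls, 21.29 and 22.38 CPM with Sox11, and 22 and 22.22 CPM with Sox11 K91A, so the groups overlapped. The log2 fold change was -0.10 (95% interval -0.47 to 0.27) with Sox11 and -0.09 (95% interval -0.46 to 0.28) with Sox11 K91A. Changes within these intervals were not excluded here. The sign turned positive with Sox11, to 0.15, when TPM were used in place of counts. Per length, Ptbp2 exceeded Ptbp1 by 3.07 and 4.32 times in the controls, by 5.5 and 5.73 times with Sox11, and by 5.47 and 5.64 times with Sox11 K91A. Reads of Ptbp1 are less certain than those of Ptbp2, because 20.7% of its exonic bases overlap exons of minus-strand genes, Plppr3 among them, and the use of strand in counting was not stated.

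The ELAV genes, whose proteins are among the first neuronal RNA-binding proteins to appear after the last division, had positive log2 fold changes with both viruses, and none was called. Elavl2 had 111.7 and 101 CPM in the controls, 125.6 and 147.7 CPM with Sox11, and 119.8 and 113.4 CPM with Sox11 K91A. Its log2 fold change was 0.36 (95% interval 0.01 to 0.70, limma-voom FDR 0.121) with Sox11 and 0.13 (FDR 0.585) with Sox11 K91A. The control and Sox11 libraries did not overlap, but the value was 0.17 (FDR 0.375) without the libraries that stood apart.

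Elavl3 had 700.2 and 878.9 CPM in the controls, 836 and 949.3 CPM with Sox11, and 936.7 and 914.4 CPM with Sox11 K91A. Elavl4 had 300.8 and 397.3 CPM in the controls, 393.2 and 528.7 CPM with Sox11, and 413.8 and 391.8 CPM with Sox11 K91A. In both genes control replicate 2 was well above control replicate 1 and reached into the range of a virus group. The log2 fold changes with Sox11 were 0.18 (FDR 0.454) for Elavl3 and 0.40 (FDR 0.199) for Elavl4 by limma-voom. With Sox11 K91A they were 0.24 (FDR 0.378) and 0.22 (FDR 0.513). A block for the libraries that stood apart brought Elavl4 just inside the threshold with Sox11 (FDR 0.0492). Without the libraries that stood apart, both were called with Sox11 K91A, Elavl3 at 0.41 (FDR 0.0445) and Elavl4 at 0.43 (FDR 0.0396). On the TPM scale Elavl3 supplied between 49.8% and 57.3% of the ELAV sum in every library.

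The NOVA genes, which control exons of synaptic proteins, also lay above the controls in all virus libraries without being called. Nova1 had 47.48 and 51.89 CPM in the controls, 57.83 and 67.15 CPM with Sox11, and 68.4 and 62.79 CPM with Sox11 K91A. Nova2 had 181.6 and 146.6 CPM in the controls, 197.7 and 239.1 CPM with Sox11, and 219.5 and 197.4 CPM with Sox11 K91A. The log2 fold changes with Sox11 were 0.33 (FDR 0.148) for Nova1 and 0.41 (FDR 0.129) for Nova2 by limma-voom. With Sox11 K91A they were 0.40 (FDR 0.119) and 0.35 (FDR 0.222). Nova1 passed with Sox11 K91A once the libraries that stood apart were left out (0.47, FDR 0.0401). For Nova2, 31.7% of the exonic bases overlap the opposite-strand gene Gm26821.

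Sox11 K91A and Sox11 were not told apart by any member. All 10 had an FDR of 1 in limma-voom, and the log2 fold changes of Sox11 K91A against Sox11 ran from -0.22 for Elavl2 to 0.44 for Rbfox3. No gene of the 15747 tested was called (0%), 108 had an unadjusted p under 0.05, edgeR called 0 and DESeq2 called 2. The CPM of the virus groups did not overlap for Elavl2 alone among the members, beside 26.6% of all genes. The intervals do not show that the viruses acted alike: that of Rbfox3 ran from -0.20 to 1.07 and that of Rbfox2 from -0.52 to 0.24. The Rbfox3 difference rested on Sox11 replicate 2, without which it was -0.008.

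**Figure D3:**
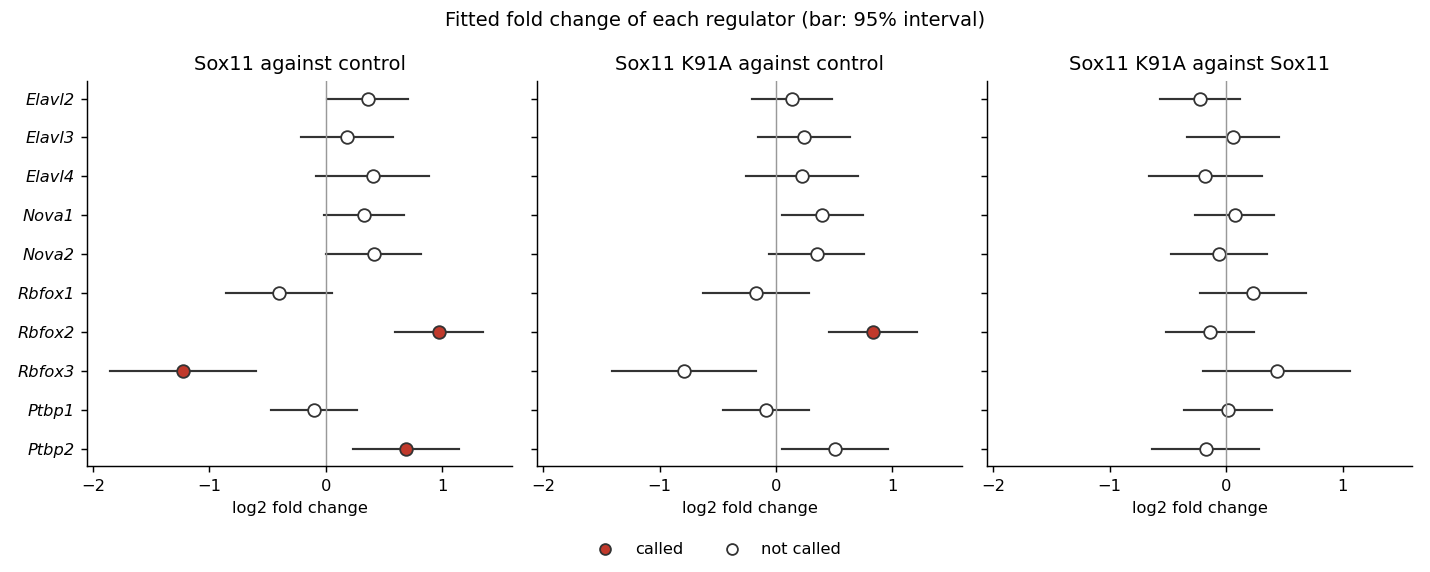
Log2 fold change (x axis) of each regulator (y axis) in the 3 comparisons, with 95% intervals from limma-voom and called genes filled. Rbfox2, Rbfox3 and Ptbp2 are called with Sox11, Rbfox2 with Sox11 K91A, and none between the viruses.

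RSEM also gives each gene a length, the mean over its transcripts weighted by their abundance, which shifts when the mix of transcripts shifts. Elavl3, Nova1 and Ptbp2 have 1 transcript in the tables and cannot shift. Elavl4 varied most, by 32.9% from its shortest to its longest, and it was 2937 and 3902 bases in the controls, 3254 and 3782 with Sox11, and 3279 and 3466 with Sox11 K91A. The longest values were those of the libraries that stood apart, so the spread within a virus group was larger than the difference between groups. Rbfox1 was likewise longest in control replicate 2, at 3058 bases against 2547 in control replicate 1. Ptbp1 was shortest in Sox11 replicate 2 at 2223 bases, against 2755 and 2512 in the controls, so its TPM was the highest there, at 22.6, while its CPM was not. Rbfox2, the member with the largest rise, varied by 1.1% across libraries.

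**Figure D4:**
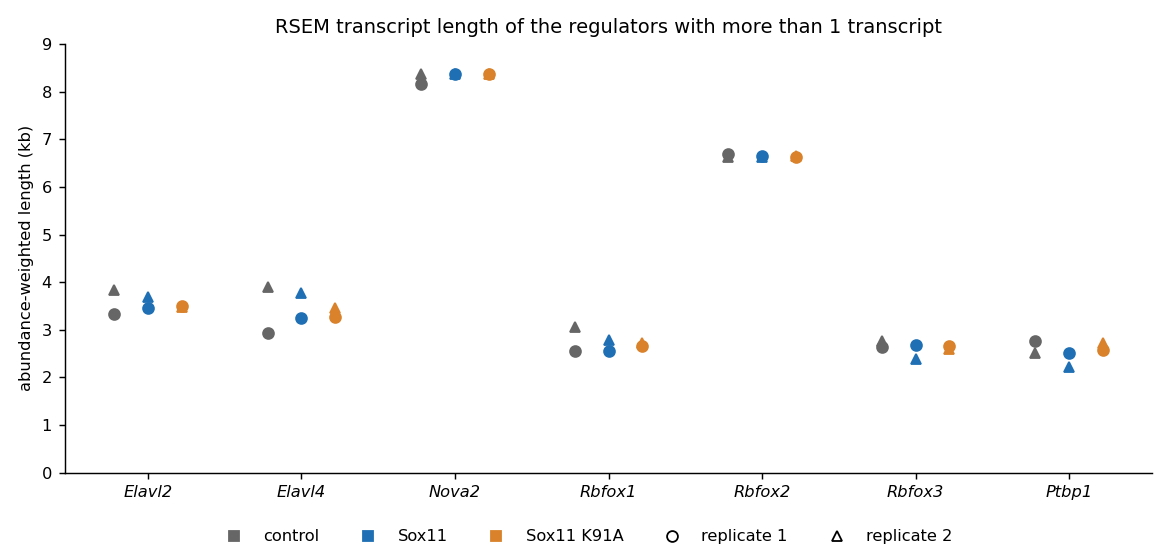
Abundance-weighted transcript length in kilobases (y axis, from 0) of the 7 members with more than 1 transcript (x axis), by library. Elavl4 spreads most, with its longest values in replicate 2 of the control and Sox11 groups.

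Regulators outside the 10 genes were read from fixed lists. Their counts in the fit of all 6 libraries stand beside the same background shares as above. From the fit without the libraries that stood apart, only log2 fold changes are given for the list genes. Among 20 other tested splicing regulators, some neuronal and some found in most cells, 4 rose and 2 fell with Sox11. The median log2 fold change of the list was 0.29 against 0.01 over all genes. Those that rose were Rbm38 (1.27), the Ptbp1 paralog Ptbp3 (0.92), the microexon regulator Srrm4 (0.85) and Celf2 (0.80). Those that fell were Celf6 (-0.86) and Mbnl2 (-0.82), a driver of mature splicing patterns. With Sox11 K91A, Rbm38 rose (1.23) and Celf6 fell (-0.86), with a list median of 0.21. Without the libraries that stood apart, the values with Sox11 were 1.41 for Rbm38, 0.80 for Ptbp3, 0.47 for Srrm4 and 0.70 for Celf2. Celf6 was at -0.84 and Mbnl2 at -0.65. In that fit the values with Sox11 K91A were 1.34 for Rbm38, 0.82 for Ptbp3, 0.51 for Srrm4 and 0.66 for Celf2. Celf6 was at -0.90 and Mbnl2 at -0.94. Srrm4 had 84.48 and 56.82 CPM in the controls, 116.8 and 134.1 CPM with Sox11, and 130.9 and 109.6 CPM with Sox11 K91A. Celf6 had 83.7 and 78.43 CPM in the controls and between 43.14 and 46.59 CPM in the 4 virus libraries, a gap far wider than the spread of either. The Celf6 call with Sox11 held in 5 of 6 fits that left out 1 library, all but that without Sox11 replicate 2, that of Rbm38 in 4 of 6, and those of Ptbp3, Celf2, Srrm4 and Mbnl2 in 1 of 6 each. With Sox11 K91A the Celf6 call held in 3 of 6 and that of Rbm38 in 2 of 6.

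None of 13 tested SR and Tra2 genes, the general activators of splicing, was called with either virus by limma-voom, where 2 in each comparison had an unadjusted p under 0.05, and their medians were 0.02 and -0.07. Among 25 hnRNP genes, 2 rose with Sox11, Hnrnpab (0.83) and Hnrnpr (0.58), and Hnrnpab rose with Sox11 K91A (0.72). Hnrnpab had 331.2 and 347.6 CPM in the controls and between 530.9 and 650 CPM in the virus libraries. The Hnrnpab call held under all 13 other settings with both viruses, and in 5 of 6 fits with Sox11 and 3 of 6 with Sox11 K91A that left out 1 library. The Hnrnpr call held in 1 of 6. Without the libraries that stood apart, Hnrnpab was at 0.77 with Sox11 and 0.76 with Sox11 K91A, and Hnrnpr at 0.50 and 0.55. In the fit of all 6 libraries, the medians of the hnRNP list were 0.23 and 0.10.

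Genes linked to the PTB proteins were read next: the REST complex and its small phosphatases, host genes of miR-124, and Dlg4 and Gabbr1, whose transcripts PTB proteins repress. Of 9 tested, 2 rose and 2 fell with Sox11, with a median of 0.00. Rest, which represses neuronal genes outside neurons, had 4.62 and 5.97 CPM in the controls, 15.21 and 20.18 CPM with Sox11, and 11.76 and 8.33 CPM with Sox11 K91A. Its log2 fold change was 1.73 (SE 0.29, limma-voom FDR 0.0149) with Sox11 and 0.90 (SE 0.31, limma-voom FDR 0.103) with Sox11 K91A. Rest remained low, at no more than 5.99 TPM in any library. Its corepressor Rcor1 rose with Sox11 (0.58, FDR 0.048) but was called under 4 of 13 other settings only. Ctdspl, a small phosphatase that acts on REST, fell with both viruses, by 1.13 and 1.19 on the log2 scale. Of the fits that left out 1 library, the Rest call held in 5 of 6, that of Rcor1 in 2 of 6 and those of Ctdspl in 1 of 6 with each virus. Without the libraries that stood apart, Rest was at 1.72 with Sox11 and 1.11 with Sox11 K91A on the log2 scale. Rcor1 was at 0.33 and 0.32, and Ctdspl at -0.85 and -0.90.

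Dlg4, which encodes the postsynaptic scaffold PSD-95, had 407.1 and 388.2 CPM in the controls, 247.3 and 159.5 CPM with Sox11, and 213.1 and 267.8 CPM with Sox11 K91A. It fell by 1.00 on the log2 scale with Sox11 (limma-voom FDR 0.0299) and was not called with Sox11 K91A (-0.73, FDR 0.087). The Sox11 call held in 3 of 6 fits that left out 1 library, being lost without Sox11 replicate 2 and without either control, and the value ran from -1.33 to -0.68. Without the libraries that stood apart, Dlg4 was at -0.76 with Sox11 K91A and -0.71 with Sox11. Gabbr1, a receptor subunit for GABA, was not called (-0.41 and -0.29). The host genes Mir124a-1hg (0.16 and -0.13) and Mir124-2hg (0.47 and 0.28) were not called either.

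Of 10 mRNAs known to be bound by neuronal ELAV proteins, 1 rose and 4 fell with Sox11, with a median of -0.54. Those that fell were Nrn1 (-2.18), Ache (-2.18), Bdnf (-2.16) and Myc (-1.65), and Mycn rose (0.62). Nrn1, which encodes neuritin, had 109.7 and 200.6 CPM in the controls, 41.71 and 25.88 CPM with Sox11, and 25.29 and 49.62 CPM with Sox11 K91A. With Sox11 K91A it fell too (-2.07, FDR 0.0303), Mycn rose (0.63, FDR 0.0427), and the other 8 were not called. Those calls of Nrn1 and Mycn held in 4 of 6 and 1 of 6 fits that left out 1 library. Without the libraries that stood apart, the values with Sox11 K91A were -2.08 for Bdnf, -1.64 for Nrn1, -1.56 for Ache, -0.75 for Myc and 0.58 for Mycn. Ache, which ends cholinergic signaling, had 386.9 and 384.7 CPM in the controls and between 51.34 and 162.9 CPM in the virus libraries. Gap43 (-0.27 and -0.24), a classic ELAV target, and Mapt (0.02 and 0.04) were not called. Of the fits with Sox11 that left out 1 library, the Nrn1 call held in 4 of 6, those of Ache and Bdnf in 3 of 6, that of Myc in 2 of 6 and that of Mycn in 1 of 6. The values with Sox11 without the libraries that stood apart were -1.76 for Bdnf, -1.45 for Ache, -1.39 for Nrn1, -0.73 for Myc and 0.57 for Mycn.

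**Figure D5:**
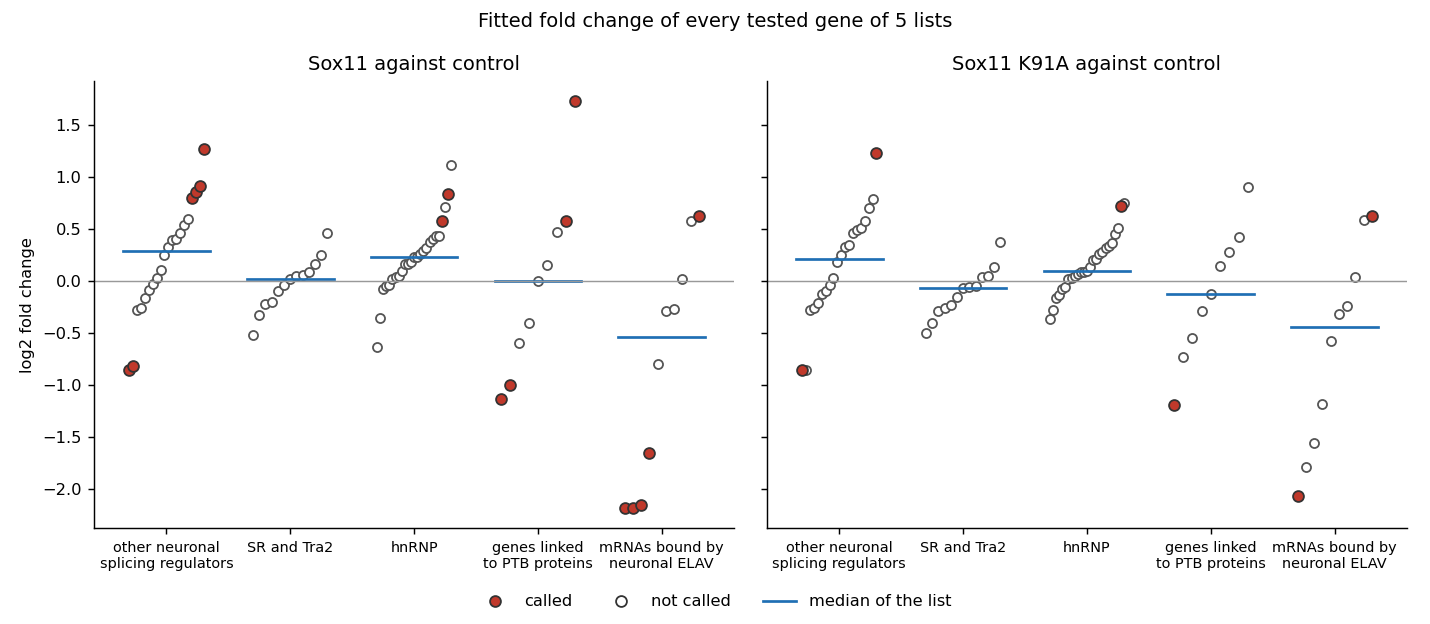
Log2 fold change (y axis) of each tested gene in the 5 lists (x axis), with Sox11 on the left and Sox11 K91A on the right. Filled points are called and the blue line is the list median, lowest for the ELAV-bound mRNAs at -0.54 and -0.44.

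Single markers of RGCs and of other cells differed between the virus and control libraries. The summed level of 8 astrocyte and Müller glia markers was 74.8 to 84.7 TPM in the controls and 205.2 to 250.5 TPM in the virus libraries. Nearly all of it was Glul, at 68.6 to 80.6 TPM in the controls and 203.1 to 247.6 TPM in the virus libraries. Gfap was at 0 throughout. The list as a whole did not rise. Of 6 tested, 2 had a log2 fold change above 0 with each virus, Glul among them. The list median was -1.892 with Sox11 and -1.002 with Sox11 K91A. Glul was called higher with both viruses, and S100b was called lower with Sox11. Markers of the list other than Glul were no higher than 3.46 TPM in any library. The 10 RGC markers summed to 9285 to 10300 TPM in the controls and 5618 to 8402 TPM in the virus libraries. Much of this was Nefl, at 3607 and 4406 TPM in the controls and 1398 to 2660 TPM in the virus libraries. Thy1 was at 940.5 and 821.9 TPM in the controls, 341.4 and 62.0 TPM with Sox11, and 200.1 and 402.2 TPM with Sox11 K91A. Sox11 replicate 2 had the lowest sum, the lowest Nefl and the lowest Thy1 of the 6 libraries. Thy1, Nefl and Slc17a6 were called lower with Sox11 and Slc17a6 with Sox11 K91A. The other 7, Pou4f1, Isl1 and Rbpms among them, were not called with either virus, and Tubb3 lay higher, at 1161 and 1360 TPM in the controls and 1643 to 1791 TPM in the virus libraries. The 8 amacrine markers did not move together: Slc6a9 was called lower with both viruses (-2.14 and -1.75), the other 7 were not called, and the list median was 0.05 with Sox11 and 1.69 with Sox11 K91A. Their sum was 125.9 TPM in control replicate 1 and 41.9 TPM in control replicate 2. It was 67.3 and 26.6 TPM in Sox11 replicates 1 and 2, and 65.5 and 59.8 TPM with Sox11 K91A. The Sox11 K91A sums thus lay between those of the controls, and the libraries that stood apart had the lowest sums. None of the 6 tested proliferation markers was called, with medians of -0.10 and -0.41. Their sum, 71.5 to 78.9 TPM in the controls and 83.1 to 93.2 TPM in the virus libraries, was nearly all Pcna, at 63.7 and 73.1 TPM in the controls and 78.8 to 84.4 TPM in the virus libraries. Mki67 was no higher than 0.20 TPM in any library. Of 4 tested oligodendrocyte lineage markers, Pdgfra and Mog were called higher with Sox11 and none was called with Sox11 K91A. Of 6 tested endothelial and mural markers, none was called with Sox11, and Pecam1 and Tek were called higher with Sox11 K91A. Pdgfra, Pecam1 and Tek were no higher than 1.57 TPM in any library. The part of these shifts in the changes of Rbfox2, Rbfox3 and Ptbp2 was not tested.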

How the data were processed

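Members and gene lists were chosen with earlier results of these data known. The authors aligned reads to mm10 with STAR and quantified them with RSEM (versions not given in the sources used here), and deposited 1 gene table per library. The authors' expected counts are not normalized, were rounded here, and were 80.9% to 82.8% whole above 0. The deposited TPM values are scaled by RSEM to the same total per library, and per the file headers the tables also hold length and a posterior SD of the count, the latter at most 0.915% of the count of any member. Of 43346 Ensembl genes, 42462 were named from GENCODE M21.

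Genes passing filterByExpr were tested with limma-voom (limma 3.58.1, edgeR 4.0.16, R 4.3.3) after TMM scaling, all 6 libraries in 1 fit, at an FDR under 0.05 and a fold change over 1.2, the thresholds of the study. Intervals are the 95% intervals of that fit. Exact permutation tests compared family sums. Alternatives used edgeR, DESeq2 1.42.0, limma-trend on log2(TPM + 1), other scalings and filters, quality weights, blocks and left-out libraries. All members were named, and from the lists, genes that were called, with any gene of the PTB-linked and ELAV-bound lists. Ptbp1 had the fewest counts of the members, 585 to 847 per library, and its SE was no larger than that of Rbfox2.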

Additional observations from a re-analysis of the deposited data

How the results depend on the processing

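Counts of calls moved with the processing. Over all genes, Sox11 against control gave 3171 calls, but 4759 with a block for the libraries that stood apart, 2094 without both of them, 1598 in a fit of the 2 groups alone, 979 with quality weights, and 0 to 3753 when 1 library was left out (0 without Sox11 replicate 2). Sox11 K91A against control gave 1672, but 3144 by DESeq2, 3006 with that block, 4108 without both libraries, 936 by limma-trend on TPM, and 0 to 2563 when 1 library was left out (0 without control replicate 2, 19 without Sox11 K91A replicate 1). Between the viruses it was 0, or 2 by DESeq2, and 0 in every fit that left out 1 library. Among the 10 regulators, 3 calls with Sox11 became 1 with quality weights and 0 to 2 when 1 library was left out. The 1 call with Sox11 K91A became 2 by DESeq2, 2 with the block for the libraries that stood apart, 2 in a fit of the 2 groups, 6 without both libraries, and 0 to 2 when 1 library was left out. A lone library left in a group is assumed to vary like the others, and the cause of these shifts was not tested.

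Signs turned for small, uncalled values. Ptbp1 turned to 0.146 with Sox11 by limma-trend on TPM (-0.215 to -0.005 when 1 library was left out), and ran from -0.194 to 0.012 with Sox11 K91A when 1 library was left out. Between the viruses, Elavl4 turned to 0.028 with the block for the libraries that stood apart and to 0.034 without both, Nova2 to 0.075 and Rbfox3 to -0.009 without both, Ptbp1 to -0.02 with that block and -0.193 by limma-trend, and Ptbp2 to 0.013 with that block. Leaving out 1 library gave -0.023 to 0.147 for Elavl3, -0.38 to 0.034 for Elavl4, -0.022 to 0.18 for Nova1, -0.187 to 0.074 for Nova2, -0.008 to 0.868 for Rbfox3 and -0.005 to 0.054 for Ptbp1. Rbfox2 was called under all 13 other settings with both viruses, Rbfox3 under 12 of 13 with Sox11, losing the call with quality weights.

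The labels number the replicates 1 and 2 in each group, and a paired fit with the number as a replicate block gave 2679 calls with Sox11, 1402 with Sox11 K91A and 0 between the viruses, with 3, 1 and 0 members called. Deviations of same-numbered libraries correlated at 0.296, -0.0538 and -0.421 for the 3 pairs of groups, so the numbers were not taken as pairs. With the Sox11 K91A numbers exchanged, a setting added after seeing the data, the block gave 4076, 2753 and 0 calls.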
